A study of Mus musculus with 3 samples.

Results

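The 35 imprinted genes described here were chosen by name from a list of well-known imprinted loci, without use of any measured value, and all 35 have a row among the 24346 gene symbols of the deposited table. They were measured by bulk RNA-seq in adult lung endothelial cells (ECs) of wild type male C57BL/6J mice aged 6 to 8 weeks. The ECs were sorted freshly from the tissue with antibodies to CD31 and to VE-cadherin, the second injected into the circulation, and cells with CD45 or podoplanin at the surface were left out. The 3 libraries, S38, S44 and S52, are of 1 condition, and the labels do not say whether they come from separate animals. No condition was therefore compared with another, no p-value is given, and each SD measures the spread between these libraries, which may be technical. The level of each gene is its FPKM, the number of sequenced fragments scaled to transcript length and to library size, used as deposited. Where 3 levels of a gene are listed, they stand in the order S38, S44, S52.

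An imprinted gene is expressed mainly or only from the copy inherited from 1 parent, the mother or the father according to the gene. The choice is set in the germ line by DNA methylation of an imprinting control region and is kept in the cells of the body by proteins such as ZFP57 and TRIM28. Imprinted genes lie in clusters, many of them act on fetal growth, and many are silenced after birth in most organs. The mice are inbred and the reads were summed per gene, so the values give the level of each gene and do not show which parental copy was transcribed. Of the 35 genes, 22 are known as paternally expressed and 13 as maternally expressed in at least 1 tissue.

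Promoter sequences on GRCm38.p6 were taken from RefSeq, each from 250 bases before to 50 bases after a transcription start, and 44 such windows were found for 29 of the genes. *H19*, *Nespas*, *Sgce*, *Peg10*, *Rtl1* and *Impact* had no entry. The hexamer TGCCGC, the motif that ZFP57 binds when its CpG is methylated, was searched on both strands, where its reverse complement reads GCGGCA. It occurred in 10 of the 44 windows (22.7%), in 9 genes, and in 11.6% of all 32851 promoter windows. The windows of imprinted genes also held more CpG dinucleotides, with a median of 13.5 against 7 over all windows, and 2 of the 10 are overlapping windows of *Mest*. *Mest*, *Plagl1*, *Meg3*, *Zdbf2* and *Zim1*, the members with the hexamer before the start, are printed here as the 250 bases upstream of it, and their levels range from detected, for *Mest*, to listed at 0, for *Zim1*. Capitals mark the hexamer on either strand.
Mest: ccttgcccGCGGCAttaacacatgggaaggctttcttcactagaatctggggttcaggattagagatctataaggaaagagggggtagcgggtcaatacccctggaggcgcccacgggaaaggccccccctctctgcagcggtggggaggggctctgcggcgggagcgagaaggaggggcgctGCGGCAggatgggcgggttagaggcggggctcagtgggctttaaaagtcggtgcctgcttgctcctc
Plagl1: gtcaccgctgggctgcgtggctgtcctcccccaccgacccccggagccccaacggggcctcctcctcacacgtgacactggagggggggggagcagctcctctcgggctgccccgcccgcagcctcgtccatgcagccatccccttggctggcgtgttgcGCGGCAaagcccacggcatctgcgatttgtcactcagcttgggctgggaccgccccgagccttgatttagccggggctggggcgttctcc
Meg3: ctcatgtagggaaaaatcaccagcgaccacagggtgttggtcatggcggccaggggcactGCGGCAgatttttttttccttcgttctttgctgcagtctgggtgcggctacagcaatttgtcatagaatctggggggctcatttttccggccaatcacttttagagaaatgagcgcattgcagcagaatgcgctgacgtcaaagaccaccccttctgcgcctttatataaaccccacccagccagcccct
Zdbf2: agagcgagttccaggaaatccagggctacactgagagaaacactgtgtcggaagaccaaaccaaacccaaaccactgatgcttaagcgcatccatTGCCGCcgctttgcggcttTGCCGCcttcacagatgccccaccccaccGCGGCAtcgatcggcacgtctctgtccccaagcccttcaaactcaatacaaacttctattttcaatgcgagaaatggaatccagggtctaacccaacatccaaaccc
Zim1: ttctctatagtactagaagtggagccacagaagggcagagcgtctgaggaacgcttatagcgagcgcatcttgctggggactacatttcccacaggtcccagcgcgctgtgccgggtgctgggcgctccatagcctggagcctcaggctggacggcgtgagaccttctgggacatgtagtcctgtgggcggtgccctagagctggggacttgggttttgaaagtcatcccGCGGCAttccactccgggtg
The *Mest* sequence is the plus strand of chr6:30737800-30738049, with 2 hexamers and 14 CpG dinucleotides. The window of another *Mest* start, chr6:30733256-30733555, holds none. The *Plagl1* sequence is the plus strand of chr10:13090582-13090831, with 1 hexamer and 19 CpG dinucleotides. The *Meg3* sequence is the plus strand of chr12:109540746-109540995, with 1 hexamer and 10 CpG dinucleotides. The window of another *Meg3* start, chr12:109545148-109545447, holds none. The *Zdbf2* sequence is the plus strand of chr1:63200108-63200357, before the first of 2 annotated starts, with 3 hexamers and 13 CpG dinucleotides, and the window of the second start holds none. The *Zim1* sequence is the minus strand of chr7:6696433-6696682, with 1 hexamer and 14 CpG dinucleotides. A match in these letters is a description, and neither methylation nor binding was measured.

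The sorted fraction carried endothelial transcripts. All 10 genes of an endothelial list were detected, with summed levels of 6369, 7058 and 6291 FPKM. Single genes of the list varied more than the sum. Only *Kdr*, at 380, 360 and 237 FPKM, was highest in S38 and lowest in S52. Only *Erg*, at 59.2, 43.1 and 84.8 FPKM, was lowest in S44. Transcripts of other cells were present as well, and their amount differed between libraries. Summed platelet markers were at 1692, 1345 and 37.96 FPKM, alveolar type 2 markers at 3756, 3156 and 760 FPKM, and airway markers at 2779, 2316 and 407 FPKM. Leukocyte markers summed to 1078, 817 and 186 FPKM, mostly *Lyz2*, at 1047, 780 and 166 FPKM. The median of the leukocyte list was 8.70, 7.32 and 3.17 FPKM. Erythroid markers summed to 394, 789 and 94.6 FPKM, and dissociation stress genes to 3325, 4144 and 4866 FPKM. Alveolar type 1 markers summed to 348, 373 and 273 FPKM, mostly *Hopx*, at 294, 332 and 201 FPKM. The median of that list was 26.9, 20.5 and 34.6 FPKM, lowest in S44 and highest in S52. Lymphatic markers summed to 565, 623 and 414 FPKM, mostly *Lyve1*, at 539, 597 and 390 FPKM. *Flt4* followed the order of that sum. *Prox1*, at 0.132, 0.173 and 0.598 FPKM, and *Pdpn*, at 2.39, 1.84 and 3.09 FPKM, were highest in S52. Depth, estimated from the steps between low values, was 38000000 fragments for S38, 38900000 for S44 and 33900000 for S52. In such bulk values, fewer cells of a type and less RNA per cell cannot be told apart.

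As a group, the imprinted genes were spread over the whole range of levels. Taking a mean of at least 1 FPKM as detected, 17 of the 35 genes (48.6%) were detected, against 48.3% of all genes in the table. Their median was 0.986 FPKM, against 0.784 FPKM over all genes. Of the 28 protein-coding members 15 were detected, where 54.7% of all protein-coding genes were. Of the 7 long noncoding members 2, *H19* and *Airn*, were detected, where 15.5% of all long noncoding genes were. Detected genes made up 10 of 22 paternally expressed and 7 of 13 maternally expressed members, with medians of 0.982 and 1.04 FPKM. The order of these medians turned without S38, at 0.872 and 0.795 FPKM. None of these shares was tested, since genes are not replicates. The call of a gene near the threshold turned on 1 library: *Kcnq1ot1* reached 1.06 FPKM without S38 and 1.002 FPKM without S44, *Plagl1* 1.29 FPKM and *Rian* 1.09 FPKM without S44. The members nearest to the threshold were *H19*, at a mean of 1.04 FPKM, above it, and *Kcnq1ot1*, at 0.986 FPKM, below it. For *H19*, detected, the levels stand for about 233, 2 and 15 fragments. For *Kcnq1ot1*, with a transcript of 93092 bp, they stand for about 2974, 3443 and 3663 fragments. FPKM is scaled to length, so a call below the threshold does not mean few fragments.

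**Figure D1:**
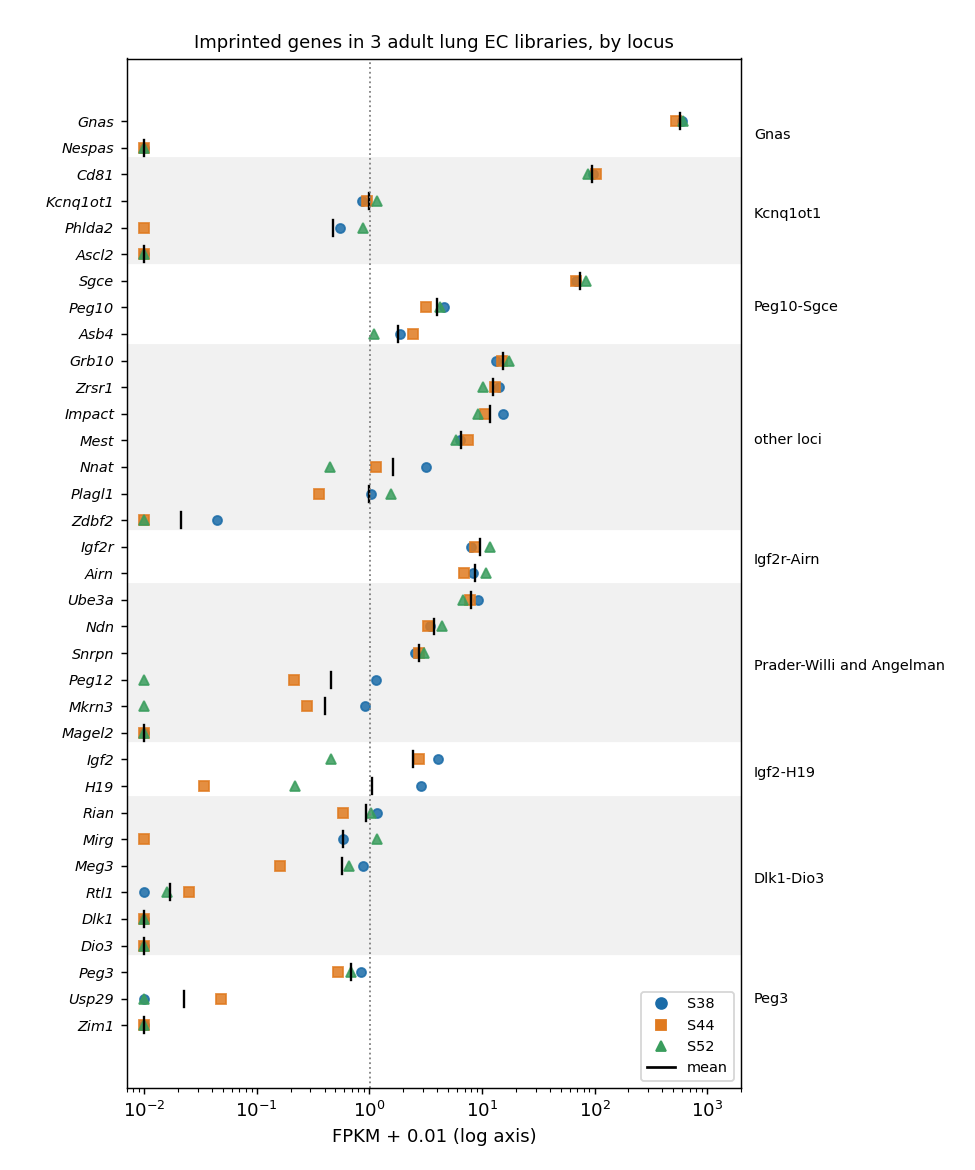
FPKM of each of the 35 imprinted genes (rows, grouped by locus) in S38, S44 and S52 (symbols) with the mean (bar), on a log axis after adding 0.01; the dotted line is 1 FPKM. *Gnas*, *Cd81* and *Sgce* lie above 60 FPKM in every library, and 6 genes lie at 0 in all of them.

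The highest member was *Gnas*, which encodes the alpha subunit of the stimulatory G protein and carries signals from hormone receptors to adenylyl cyclase. Its levels were 593, 524 and 614 FPKM, with a mean of 577 ± 47.0 FPKM (SD, n = 3), above 99.2% of all genes. *Gnas* alone made up 68.4% ± 1.497 (SD, n = 3) of the summed FPKM of the 35 genes. The locus, chr2:174284320-174346744 on the plus strand of GRCm38, has several promoters, some imprinted and one used in most tissues from both parental copies. The table gives 1 value for all of them, so the share of each transcript is unknown.

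*Cd81* and *Sgce* followed. *Cd81*, which encodes a tetraspanin of the cell surface and is imprinted in the placenta, was at 96.4, 103 and 88.0 FPKM, with a mean of 95.9 ± 7.60 FPKM (SD, n = 3). *Sgce*, the gene of epsilon-sarcoglycan, a membrane glycoprotein of the dystrophin complex, was at 67.9, 68.6 and 84.5 FPKM, with a mean of 73.7 ± 9.35 FPKM (SD, n = 3). The order of these highest genes, *Gnas*, *Cd81* and *Sgce*, was the same in all 3 libraries, and their values did not overlap. *Sgce* was the highest of the paternally expressed members, and its mean lay above 95.1% of all genes.

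*Sgce* and *Peg10* are transcribed away from each other on chromosome 6, from starts that lie close together, *Sgce* at chr6:4674350-4747207 on the minus strand and *Peg10* at chr6:4747306-4760517 on the plus strand. *Peg10*, a gene derived from a retrotransposon and needed for the placenta, was far lower than its neighbour, at 4.602, 3.21 and 4.19 FPKM. Within a library, the log2 ratio of *Sgce* to *Peg10* was 3.90 ± 0.25 on the log2(FPKM + 1) scale (SD, n = 3), with *Sgce* higher in all 3 libraries. With 3 libraries a two-sided sign-flip test cannot go below 0.25, so no such ratio was tested here. *Asb4*, a maternally expressed gene downstream of *Peg10* whose product is known from developing vessels, was at 1.87, 2.43 and 1.09 FPKM, and its highest library was 2.23 times its lowest.

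Between 5 and 20 FPKM lay 7 further members, from *Grb10* to *Mest*. *Grb10*, the adaptor that dampens signals of the insulin and IGF receptors, was at 13.3, 15.0 and 17.4 FPKM, with a mean of 15.2 ± 2.07 FPKM (SD, n = 3). *Zrsr1*, a retrogene for a splicing factor, was at 14.2, 13.1 and 10.2 FPKM. *Impact*, whose protein restrains the translational stress kinase GCN2, was at 15.4, 10.7 and 9.27 FPKM. *Grb10*, *Zrsr1* and *Impact* overlapped in their values, so their order is not fixed by these libraries. *Ube3a*, the ubiquitin ligase gene of Angelman syndrome, which is imprinted in neurons, was at 9.15, 7.79 and 6.82 FPKM. *Mest*, which encodes a protein of the hydrolase fold and marks mesoderm in the embryo, was at 6.36, 7.44 and 5.85 FPKM. *Mest* was below *Ube3a* in each library.

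The receptor gene *Igf2r* and the antisense RNA *Airn* had like levels. *Igf2r* clears IGF2 from the cell surface and carries enzymes to lysosomes, and *Airn* silences the paternal copy of *Igf2r* in the embryo. *Igf2r* was at 8.003, 8.72 and 11.8 FPKM, with a mean of 9.52 ± 2.03 FPKM (SD, n = 3). *Airn* was at 8.36, 6.96 and 10.9 FPKM, with a mean of 8.76 ± 2.02 FPKM (SD, n = 3). *Igf2r* was the higher in 2 of 3 libraries and the log2 ratio was 0.11 ± 0.17 (SD, n = 3), smaller than its spread. The genes lie on opposite strands of chromosome 17, *Igf2r* at chr17:12682406-12769664 and *Airn* at chr17:12741311-12860136, and share 28354 bp. No exon of one is an exon of the other in the basic annotation. The libraries carry no strand information, so fragments from introns of *Igf2r* that fall on exons of *Airn* cannot be told apart from *Airn*.

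The ligand *Igf2* and its neighbour *H19* differed between libraries more than any of the genes above. *Igf2*, the fetal growth factor, had levels of 4.05, 2.73 and 0.444 FPKM. *H19*, a noncoding RNA that shares enhancers with *Igf2* and is expressed from the maternal copy, was at 2.89, 0.0241 and 0.207 FPKM. *H19* was thus high in 1 library, S38, while *Igf2* was high in both S38 and S44. For *H19*, at chr7:142575529-142578143 on the minus strand, these values stand for about 233 fragments in S38 (95% Poisson interval 204 to 265), 2.0 in S44 (0.242 to 7.22) and 15.0 in S52 (8.40 to 24.7), counting error only. Its highest library was 120 times its lowest, and 1.80% of detected genes had a larger ratio. Its mean was 0.116 FPKM without S38, below the detection threshold.

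Across the detected members, 4 of 17 (23.5%) varied more than 2-fold from lowest to highest library, against 20.1% of all detected genes. The count was 2 without S38 or without S52, 0 among members of at least 3 FPKM and 11 among those of at least 0.1 FPKM. The 4 members were *H19*, *Igf2*, *Nnat* and *Asb4*, and all of them had means under 3 FPKM. *Nnat*, the gene of neuronatin, a small membrane protein of neurons and adipose tissue, was at 3.21, 1.15 and 0.437 FPKM. Without S38 the mean of *Nnat* was 0.792 FPKM, below the threshold, and that of *Igf2* was 1.58 FPKM instead of 2.41 FPKM. *Igf2*, *Nnat* and, below the threshold, *Peg12* and *Mkrn3* were highest in S38 and lowest in S52, as were *Zrsr1*, *Impact* and *Ube3a* with smaller differences. *Peg12*, an intronless gene of the Prader-Willi region, was at 1.13, 0.206 and 0 FPKM, and *Mkrn3*, a makorin gene known as a brake on puberty, at 0.914, 0.268 and 0 FPKM. The platelet, alveolar type 2, airway, leukocyte and fibroblast lists had the same order of libraries in their sums. Outside the fibroblast list, *Abca3*, *Scgb3a1*, *Cd68* and *Cd3e* were highest in S44 instead, and the other genes followed that order. Every gene of these lists was detected except the leukocyte gene *Cd3e*. Summed fibroblast markers were at 75.7, 57.6 and 44.2 FPKM, but only *Dcn* and *Col1a1* followed that order, and the median of the list was 7.13, 5.86 and 7.72 FPKM, lowest in S44. Neuronal and neuroendocrine markers, with 2 of 6 detected, were at 4.72, 1.697 and 7.74 FPKM in sum, in another order, and mesothelial markers, with 1 of 4 detected, at 2.34, 6.14 and 0 FPKM. The part of these cells in the values of *Igf2*, *Nnat*, *Peg12*, *Mkrn3*, *Zrsr1*, *Impact*, *Ube3a* and *H19* was not tested. The share of all genes that were highest in S38 and lowest in S52 was not counted, so that order is not read as particular to these members.

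**Figure D2:**
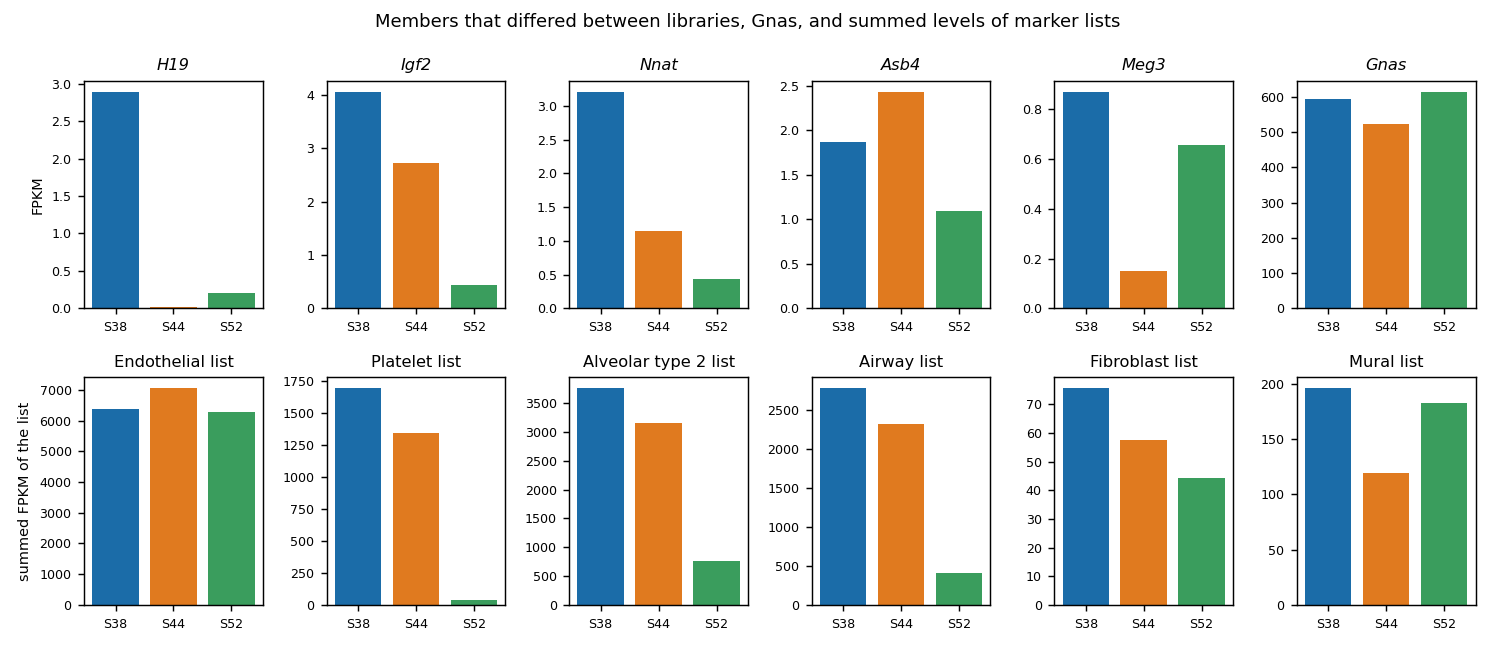
Top row, FPKM of *H19*, *Igf2*, *Nnat*, *Asb4*, *Meg3* and *Gnas* in S38, S44 and S52; bottom row, summed FPKM of 6 marker lists in the same libraries, all axes from 0. *Igf2* and *Nnat* are highest in S38 and lowest in S52, as are the platelet, alveolar type 2 and airway sums and the fibroblast sum, which *Dcn* leads. *Gnas* and the endothelial sum vary little, though single endothelial genes such as *Kdr* and *Erg* vary more.

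None of the 6 members of the *Dlk1*-*Dio3* interval on chromosome 12 reached a mean of 1 FPKM, where 48.3% of all genes did. The share was 54.7% over all protein-coding genes and 15.5% over all long noncoding genes. This interval holds paternally expressed protein-coding genes and a row of noncoding RNAs transcribed from the maternal copy. The coding genes were at or near 0. *Dlk1*, a membrane ligand of the Notch family that keeps precursor cells undifferentiated, and *Dio3*, the enzyme that inactivates thyroid hormone, were listed at 0 in all 3 libraries, and *Rtl1*, a retrotransposon-derived gene of the placenta, was at 0, 0.0151 and 0.00579 FPKM. The noncoding RNAs were low, with means above 0. *Meg3* was at 0.868, 0.152 and 0.654 FPKM, *Rian*, which hosts small nucleolar RNAs, at 1.16, 0.568 and 1.02 FPKM, and *Mirg*, which hosts microRNAs, at 0.576, 0 and 1.16 FPKM. All 3 were lowest in S44. *Meg3* was below *Rian* in every library, with a log2 ratio of -0.32 ± 0.12 (SD, n = 3). All 60 microRNA rows between *Dlk1* and *Dio3* were listed at 0 in all libraries, which were made from polyadenylated RNA and do not measure mature microRNAs.

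**Figure D3:**
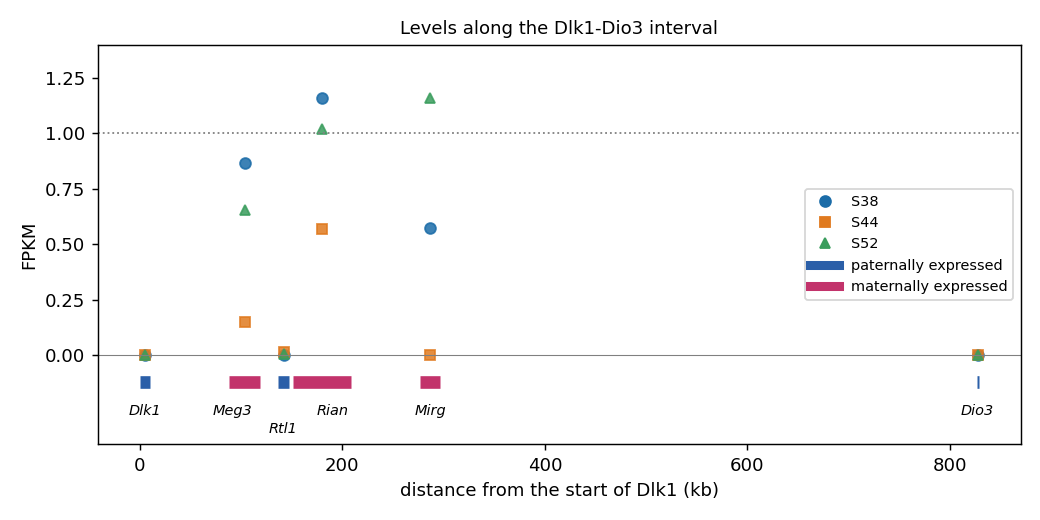
FPKM in S38, S44 and S52 (symbols) of the 6 members along the *Dlk1*-*Dio3* interval, at the middle of each gene, with gene spans as bars coloured by the expressed parental copy; the dotted line is 1 FPKM. The maternally expressed *Meg3*, *Rian* and *Mirg* lie between 0 and 1.16 FPKM with S44 lowest, and the paternally expressed genes lie at or near 0.

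*Plagl1*, *Phlda2* and *Peg3* were also lowest in S44, as were *H19* and, at higher levels, *Gnas*, *Airn*, *Peg10* and *Ndn*. *Plagl1*, a zinc finger factor that controls other imprinted genes, was at 1.03, 0.350 and 1.55 FPKM. *Phlda2*, a maternally expressed brake on placental growth, was at 0.544, 0 and 0.863 FPKM, or about 12.3, 0 and 17.8 fragments. *Peg3*, a large zinc finger gene at chr7:6703892-6730431 on the minus strand, was at 0.838, 0.521 and 0.677 FPKM, which varied less. All 5 mural markers were detected and were lowest in S44 as well, with summed levels of 196, 119 and 182 FPKM. The sum of the neuronal and neuroendocrine list and the medians of the fibroblast and alveolar type 1 lists, all given above, were lowest in S44 too. The part of these cells in the values was not tested. How many of all genes were lowest in S44 was not counted, so this order is not read as a trait of the members.

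In the Prader-Willi and Angelman region of chromosome 7, 3 of 6 members were detected, *Ube3a* given above among them, where 48.3% of all genes were. *Ndn*, a MAGE protein gene with a role in neuron survival, was at 3.42, 3.30 and 4.45 FPKM, with a mean of 3.72 ± 0.633 FPKM (SD, n = 3). *Snrpn*, which encodes a spliceosomal protein, was at 2.55, 2.73 and 3.04 FPKM, with a mean of 2.77 ± 0.251 FPKM (SD, n = 3), and was below *Ndn* in every library. *Magel2*, a MAGE family gene next to *Ndn* at chr7:62377010-62381640, was listed at 0 in all libraries. The region thus held genes detected in every library beside one listed at 0.

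The *Kcnq1ot1* cluster of distal chromosome 7 was as uneven. Beside *Cd81*, *Kcnq1ot1*, the paternally expressed RNA that silences this cluster, was at 0.842, 0.952 and 1.16 FPKM, with a mean of 0.986 ± 0.163 FPKM (SD, n = 3). *Ascl2*, a transcription factor of the trophoblast, was listed at 0. The whole of *Kcnq1ot1*, chr7:143203458-143296549, lies inside *Kcnq1* on the opposite strand. *Kcnq1*, itself imprinted in the embryo, was at 24.7, 28.5 and 27.9 FPKM, and without strand information its intronic fragments cannot be told apart from *Kcnq1ot1*.

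The 6 members *Dlk1*, *Dio3*, *Magel2*, *Zim1*, *Nespas* and *Ascl2* were listed at 0 in all 3 libraries, or 17.1%, against 29.5% of all genes. Of the exonic bases of *Nespas*, an antisense RNA, 31.4% are also exonic in *Gnas*, and fragments from them cannot be told apart. A listed 0 does not show that no fragment was sequenced. For the longest transcript of each, a count of 0 allows up to 0.0176 FPKM in S38 for *Dlk1*, 0.0422 FPKM for *Dio3* and 0.0546 FPKM for *Ascl2* (3 fragments, counting error only). Close to 0 were *Usp29*, at 0, 0.0384 and 0 FPKM, and *Zdbf2*, at 0.0339, 0 and 0 FPKM. *Usp29* starts next to *Peg3* on the other strand, and *Peg3* was the higher in all 3 libraries. Of the sequences printed above, that of *Zdbf2* holds the most hexamers and belongs to one of the lowest members, and that of *Mest* belongs to a detected gene. The window of the second *Zdbf2* start holds none, and a link between hexamers and level was not tested.

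**Figure D4:**
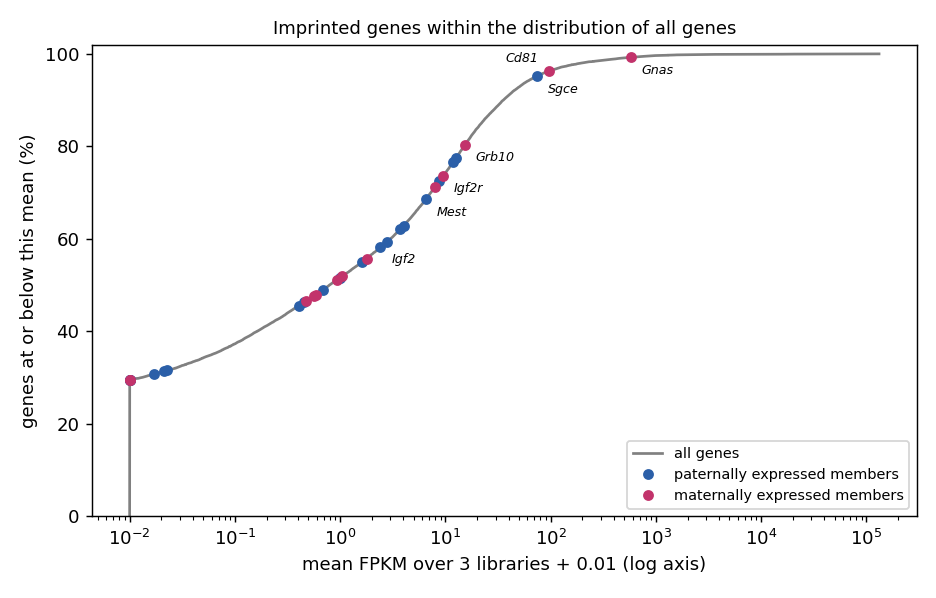
Share of all 24346 genes at or below a given mean FPKM (grey line, log axis after adding 0.01), with the 35 imprinted genes as points coloured by the expressed parental copy. The members run from the genes listed at 0 to *Gnas* at 577 FPKM, and both colours are spread along the line.

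Other members also share sequence with a neighbour. *Zrsr1* lies inside *Commd1* on the opposite strand, and *Commd1* was at 56.6 ± 6.04 FPKM (SD, n = 3). *Nnat* lies inside *Blcap*, which was at 10.3, 6.54 and 5.84 FPKM, the same order of libraries as *Nnat*. Of the exonic bases of *Mest*, 32.9% are also exonic in *Copg2* on the opposite strand, and *Copg2* was at 15.8 ± 1.78 FPKM (SD, n = 3). In the *Igf2* transcript, 75.9% of the windows of read length (51 bases) also occur in a read-through transcript that has no row in the table. In the longest *Snrpn* transcript, 26.1% of such windows also occur in other genes, *Snurf* among them. Of the exonic bases of *Ube3a*, 32.4% are also exonic in genes on the opposite strand, *Snhg14* among them. For 19 members, *Gnas*, *Cd81*, *Sgce*, *Grb10* and *Igf2r* among them, none of the windows of the longest transcript occurs in another gene. Other transcripts of *Gnas* do share exonic bases with *Nespas*.

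A second list of 41 imprinted genes and their neighbours, 40 of them in the table, gave a similar spread. Of these, 19 (47.5%) were detected, with a median of 0.795 FPKM. Those at 10 FPKM or above were *Pon2*, *Commd1*, *Nap1l4*, *Peg13*, *H13*, *Kcnq1*, *Mcts2*, *Tssc4*, *Pon3*, *Trappc9* and *Copg2*. *Pon2*, a paraoxonase gene near *Peg10*, was highest at 70.3 ± 5.70 FPKM (SD, n = 3). *Peg13*, a noncoding RNA expressed from the paternal copy inside *Trappc9*, was at 51.7, 49.6 and 40.3 FPKM, above *Trappc9*, at 17.6, 18.7 and 16.5 FPKM. *Cdkn1c*, the cell cycle inhibitor silenced by *Kcnq1ot1* on the paternal copy, was at 6.11, 5.85 and 8.37 FPKM, above *Kcnq1ot1* in each library.

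Of 19 genes for imprint maintenance and DNA methylation, 15 (78.9%) were detected, where 48.3% of all genes and 54.7% of protein-coding genes were, with a median of 5.57 FPKM. *Zfp57* was at 6.26, 5.19 and 4.61 FPKM, and *Zfp445*, a second zinc finger protein of imprinting control regions, at 14.9 ± 2.28 FPKM (SD, n = 3). Their common partner *Trim28* was at 41.2 ± 3.82 FPKM and the insulator protein gene *Ctcf*, whose product separates *Igf2* from its enhancers, at 29.3 ± 6.05 FPKM (SD, n = 3 for each). Among methyltransferases, the maintenance enzyme *Dnmt1* was at 14.1 ± 1.11 FPKM (SD, n = 3), above the de novo enzymes *Dnmt3a*, at 4.31 ± 0.848 FPKM, and *Dnmt3b*, at 1.69 ± 0.347 FPKM (SD, n = 3 for each). The germ line and early embryo genes *Dppa3*, listed at 0, and *Dnmt3l*, at 0.0524, 0.107 and 0 FPKM, were not detected. Below the threshold were also *Hells*, a chromatin remodeller needed for DNA methylation, at 1.18, 0.742 and 0.0719 FPKM, and the demethylating enzyme gene *Tet1*, at 0.860, 0.520 and 0.501 FPKM. *Uhrf1*, the partner of DNMT1, was close to it, at 0.657, 1.1005 and 1.43 FPKM.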

How the data were processed

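Poly-A selected, non-stranded RNA libraries of sorted adult lung ECs were sequenced as paired reads of 51 bp. Per gene symbol, 1 FPKM value for each library, on mm10, is what the authors deposited. The submitters' processing notes name bcl2fastq 2.17, FastQC 0.11.5, Trimmomatic 0.36, TopHat2 2.1.0 and Cufflinks 2.2.1, whereas the study's methods name BBtools, STAR and HTSeq for its counts. The gene annotation is not given in the sources used here. FPKM values are not counts, so no count model was fitted.

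Samples were grouped by their titles. All 35 members were named, and pairs, domains, the second imprinted list, of which genes at 10 FPKM or above are named, the maintenance genes, marker lists and the hexamer were fixed with earlier results of these data known. *Cdkn1c* and *Blcap* were named after their values were seen. Means and SDs used FPKM, and ratios used log2(FPKM + 1), a pseudocount of 1, which understates changes of low genes. Depth was estimated by finding the step at which low values of 7077 genes with 1 transcript of 800 to 4000 bp become whole fragments. Of the low values, 79.3%, 77.4% and 74.9% in S38, S44 and S52 lay within 0.15 of a whole number. Tested on counts simulated at set depths with the same transcript lengths as the search, its largest error was 0.0255%. That does not measure its error on the deposited values, whose gene annotation is unknown. Fragment numbers use the longest transcript in GENCODE M21 (GRCm38, the mm10 assembly), which matched 23310 of 24346 symbols and all 35 members. Intervals are exact 95% Poisson intervals. Python 3.11.15, pandas 2.3.3, numpy 2.4.6 and scipy 1.17.1 were used. Alternatives covered detection thresholds, rescaling, pseudocounts and leaving out each library.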

Additional observations from a re-analysis of the deposited data

How the results depend on the processing

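The number of detected imprinted genes was 26 at a threshold of 0.1 FPKM and 6 at 10 FPKM. For paternally expressed members it was 3 at 10 FPKM, and for maternally expressed members 11 at 0.1 FPKM and 3 at 10 FPKM. Without the members listed at 0 in all libraries, the medians were 1.80 FPKM for all members, 2.002 FPKM for paternally and 1.80 FPKM for maternally expressed ones. The number of members over 2-fold apart between libraries was 0 with a threshold of 3 FPKM and 11 with one of 0.1 FPKM, and ran from 2 to 3 when 1 library was left out (2 without S38, 3 without S44 and 2 without S52). Leaving out 1 library gave 16 to 20 detected members, and the median ran from 0.795 to 1.29 FPKM. The other 59 alternative values of the counts and medians stayed within 1.5 times the main count or within the SD between libraries. A rescaling of every library to sum to 1000000 moved 14 members' means by more than their SD, all downwards, and the other rescalings moved none. No difference or ratio changed sign in the alternatives run, but the order of the medians of paternally and maternally expressed members turned in 3 of them: the pair was 0.872 and 0.795 FPKM without S38, 0.947 and 0.899 FPKM with geometric means, and as given above without the members at 0. No paired analysis was possible because there is 1 group. Levels under about 0.1 FPKM rest on few fragments, such as 2.0 for *H19* in S44.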
